A study of Mus musculus with 7 samples.

Results

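The transcription factor p53 (Trp53) and 9 of its canonical target genes were followed in grafts of the pigmented mouse melanoma line B16F10, carried by female C57BL/6J mice. The members are Trp53, Cdkn1a, Mdm2, Ccng1, Bax, Bbc3, Phlda3, Trp53inp1, Zmat3 and Sesn1. They were picked by name from the gene count table, which holds 21878 genes, and all 10 members were found there. In the Zelnorm group, 4 samples came from tumours of mice dosed orally with 1.25 mg/kg of Zelnorm at intervals of 2 days. In the control group (NC), 3 samples came from tumours of mice of the same strain carrying the same cell line. Zelnorm is the brand of tegaserod, which partially activates a serotonin receptor of the gut, and what the NC mice were given is not stated in the labels. Groups were formed at random once tumours could be felt, and RNA came from whole tumour tissue, so tumour cells, blood cells and stroma were measured together. Library names begin with MBZ in the Zelnorm group, letters the labels do not explain, and the libraries are MBZ_9, MBZ_11, MBZ_13 and MBZ_15, and NC_5, NC_6 and NC_10. Whether the libraries stem from separate mice or tumours is not stated, so n counts libraries throughout. For the same reason, p-values measure only the spread between these samples, which may be technical.

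The protein p53 is a DNA-binding factor that is kept low in unstressed cells by the ubiquitin ligase Mdm2, whose own gene it switches on. After DNA damage, oncogene signalling or other stress, p53 accumulates and raises genes that halt the cell cycle, repair DNA, adjust metabolism or start apoptosis. Targets differ in the signals they respond to, and many are also driven by other factors, so the level of a single target does not read out p53 alone.

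Library totals ran from 16903598 to 19666598 counts, and levels are given as CPM, that is, counts scaled to a common library size after adjustment by the trimmed mean of M values. Pigment cell markers summed to between 28253 and 30510 CPM in the Zelnorm libraries and to between 26094 and 29525 CPM in the NC libraries, and all 10 passed the filter on low counts. The 15 pan-leukocyte markers summed to between 652 and 906 CPM in the Zelnorm libraries, against between 591 and 672 CPM in the NC libraries. Arhgdib, the most abundant of them, averaged 345 CPM in Zelnorm and 328 CPM in NC libraries, with a log2 fold change of 0.07. All 15 markers had a log2 fold change above 0, against 50.2% of all genes tested, with a median of 0.67. For 4 of them no NC library reached the lowest Zelnorm library, as for 5.33% of all genes tested. In edgeR 0 of the 15 passed the adjusted threshold of 0.05, and 9 had an unadjusted p under 0.05 (60.0%, against 10.3% of all genes tested). In limma voom 0 passed, and in DESeq2 5 did (Cd52, Cd53, Coro1a, Itgb2 and Ptprc), against 1.72% of the 12000 genes to which DESeq2 gave an adjusted p. The 12 macrophage markers summed to between 487 and 708 CPM in Zelnorm libraries and to between 253 and 511 CPM in NC libraries. Of these, 12 of 12 were above 0, with a median log2 fold change of 0.64. For 8 fibroblast markers the sums were between 1213 and 2416 CPM in Zelnorm and between 681 and 1774 CPM in NC libraries, with 8 of 8 above 0 and a median log2 fold change of 0.56. For 8 T cell markers they were between 15.03 and 28.4 CPM in Zelnorm and between 10.01 and 14.5 CPM in NC libraries, again with 8 of 8 above 0 and a median of 0.99. The 8 endothelial markers summed to between 543 and 665 CPM in Zelnorm and to between 568 and 615 CPM in NC libraries. Of these, 5 were above 0 and 3 below, with a median log2 fold change of 0.03. Only 2 of 8 keratinocyte markers could be tested, 1 above and 1 below 0. Skeletal muscle markers were uneven, with 344 CPM in MBZ_15, 130 CPM in MBZ_11 and 43.9 CPM in NC_5, and between 8.16 and 20.5 CPM in the other 4 libraries. In such bulk samples, fewer cells of a type and less RNA per cell cannot be told apart. The part of these markers in the differences given for p53 genes was examined only by further fits. Those fits added the leukocyte or muscle level, or left out MBZ_15, MBZ_11 and NC_5 together. The leukocyte level, the mean log2 CPM of the 15 markers, was 4.15 to 4.82 in Zelnorm and 3.75 to 4.19 in NC libraries. It was thus tied to group, so a fit with it cannot separate leukocyte content from treatment. All 11 tested muscle markers had a log2 fold change above 0, with a median of 2.88. The muscle level, the mean log2 CPM of those 11, was -0.60 to 4.46 in Zelnorm and -1.40 to 1.65 in NC libraries. These ranges overlapped but leaned to Zelnorm, so the fit with it may not fully separate muscle content from treatment.

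Promoter sequence was read for the members because p53 binds a known consensus. The p53 half-site consensus, a stretch of 10 bases that reads the same on both strands, was searched in RefSeq promoter windows (build GRCm38.p6), which run from 250 bases before to 50 bases after a transcription start. Of the 10 members 8 had at least 1 window, and Trp53inp1 and Zmat3 had none in the table. At least 1 half-site was found for 6 of these 8 genes, against 9.55% of the 27025 genes with a window. The matches are printed here with 15 bases on either side, 5′ to 3′ on the strand of the gene, with the half-site in capitals. Each is a match of letters and not a measured binding site.
Trp53, chr11:69580269-69580308, plus strand: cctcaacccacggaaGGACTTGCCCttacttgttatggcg
Cdkn1a, chr17:29090891-29090930, plus strand: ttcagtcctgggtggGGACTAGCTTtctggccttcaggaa
Cdkn1a, chr17:29090913-29090952, plus strand: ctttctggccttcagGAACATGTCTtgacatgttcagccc
Mdm2, chr10:117710920-117710959, minus strand: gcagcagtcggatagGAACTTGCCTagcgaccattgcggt
Ccng1, chr11:40755447-40755486, minus strand: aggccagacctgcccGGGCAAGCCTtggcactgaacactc
Bax, chr7:45467075-45467114, minus strand: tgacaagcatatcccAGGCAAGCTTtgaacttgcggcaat
Sesn1, chr10:41887251-41887290, plus strand: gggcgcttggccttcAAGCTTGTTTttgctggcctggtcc

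Cdkn1a was the only member with 2 half-sites in 1 window, a property of 0.359% of the 32851 windows searched. Both lie before the upstream one of its RefSeq starts, and 2863 and 2841 bases before the downstream start. The 250 bases before that upstream start, chr17:29090729-29090978 on the plus strand, carry both half-sites in capitals.
Cdkn1a upstream start: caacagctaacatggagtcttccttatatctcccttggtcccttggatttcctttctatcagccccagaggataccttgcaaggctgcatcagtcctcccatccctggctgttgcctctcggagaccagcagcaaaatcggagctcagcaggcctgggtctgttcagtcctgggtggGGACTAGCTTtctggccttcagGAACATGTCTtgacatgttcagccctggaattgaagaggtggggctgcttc
The windows of Bbc3 (3 windows) and Phlda3 (1 window) held no half-site. No half-site in these letters says nothing about p53 binding elsewhere in the gene.

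All 10 members passed the filter on low counts, and 0 passed the test across all genes, in edgeR and likewise in DESeq2 and limma voom. The smallest adjusted p among them was 0.300 (Zmat3; edgeR quasi-likelihood test, Benjamini-Hochberg adjustment over 12997 genes), while 4 genes in all, or 0.0308% of those tested, passed at 0.05, each of them higher in Zelnorm tumours. Among the members 8 had a log2 fold change below 0 and 2 above 0, with a median of -0.09, against 49.8% of all genes tested below 0, 50.2% above 0 and a median of 0.00. At an unadjusted p under 0.05, Zmat3, Ccng1 and Cdkn1a were lower in Zelnorm tumours and none was higher, where 3.38% of all genes tested were lower and 6.94% higher. The groups did not overlap for 3 members, Zmat3, Ccng1 and Mdm2, each with every Zelnorm library below every NC library, a pattern found for 4.27% of all genes tested, and 0 members had the opposite pattern, which 5.33% of all genes tested had. The differences were small: the 95% confidence intervals of the 10 fold changes lay between 0.709-fold (lower bound of Cdkn1a) and 1.42-fold (upper bound of Bbc3).

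**Figure D1:**
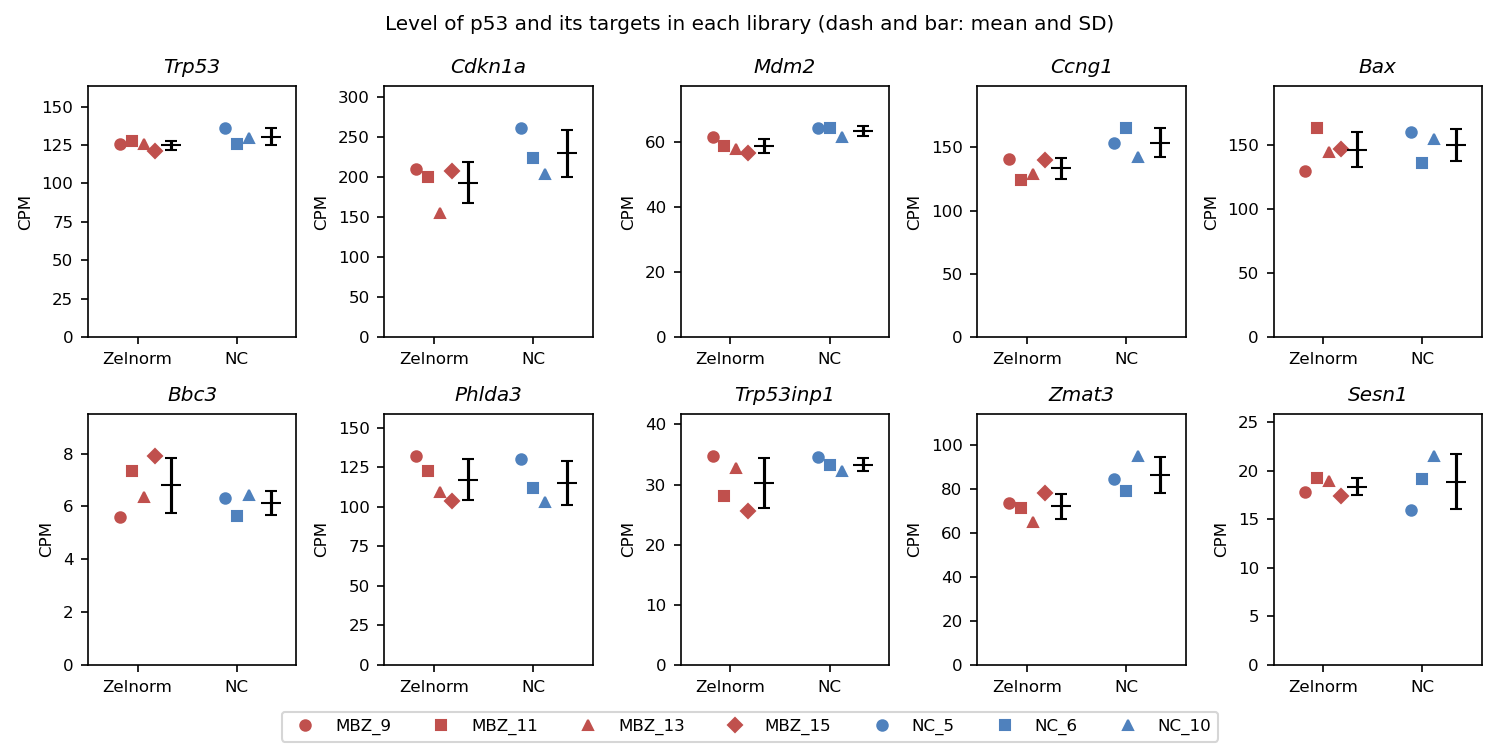
Level of each member in CPM (vertical axis, starting at 0), with 1 point per library, Zelnorm at the left and NC at the right of each panel, and a dash with a bar for the mean and SD. The Zelnorm points of Mdm2, Ccng1 and Zmat3 lie below all NC points, and in the other 7 panels the groups overlap.

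Trp53 (chromosome 11, 69580348 to 69591873, protein coding), which encodes p53 itself, was at nearly one level in all libraries. It had 126, 127, 125 and 121 CPM in the Zelnorm libraries MBZ_9, MBZ_11, MBZ_13 and MBZ_15, against 136, 126 and 129.5 CPM in NC_5, NC_6 and NC_10. The groups overlapped, since NC_6 lay within the Zelnorm range, and the highest library exceeded the lowest 1.13-fold. On the log2 scale its fold change was -0.06 ± 0.05 (SE), with an edgeR adjusted p = 0.739 and a 95% interval of the fold change from 0.884 to 1.04. The p53 protein is regulated largely by its stability, which these data do not measure. A processed pseudogene, Trp53-ps, is annotated on another chromosome and has no entry in the count table, so reads that fit both copies make the count of Trp53 uncertain.

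Cdkn1a (chromosome 17, 29090979 to 29100722) encodes p21, the inhibitor of cyclin-dependent kinases through which p53 halts the cell cycle. Its level was 209.9, 200.1, 155 and 208 CPM in MBZ_9, MBZ_11, MBZ_13 and MBZ_15, against 262, 223 and 204 CPM in NC_5, NC_6 and NC_10. MBZ_13 stood below and NC_5 above the other libraries, and NC_10 lay within the range of the Zelnorm libraries. The mean was 193 ± 25.6 CPM in Zelnorm tumours (SD, n = 4) and 229.8 ± 29.1 CPM in NC tumours (SD, n = 3). This gave -0.25 ± 0.11 on the log2 scale (SE; adjusted p = 0.476, edgeR). Without NC_5 it was -0.15 and without MBZ_13 it was -0.16, and the unadjusted p, 0.0474 with all libraries in edgeR, was then 0.232 and 0.0963. Leaving out any other single library gave between -0.33 and -0.27, with an unadjusted edgeR p between 0.0159 and 0.0686. With the skeletal muscle level in the fit the log2 fold change was -0.39 (edgeR unadjusted p = 0.00374, adjusted p = 0.311). GENCODE annotates an uncharacterised transcript (AC167363.2) on the opposite strand across part of Cdkn1a, and the strand setting of the counting is not given in the sources used here.

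Ccng1 (chromosome 11, 40748552 to 40755309), which encodes cyclin G1, a p53 target that recruits a phosphatase to Mdm2, was lower in every Zelnorm library. It had 141, 124, 129 and 139.5 CPM in MBZ_9, MBZ_11, MBZ_13 and MBZ_15, against 153, 165 and 142 CPM in NC_5, NC_6 and NC_10. The gap between the groups was narrow, with MBZ_9 close to NC_10. Its mean was 133 ± 8.25 CPM in Zelnorm tumours (SD, n = 4) and 154 ± 11.4 CPM in NC tumours (SD, n = 3), and the log2 fold change was -0.20 ± 0.07 (SE; unadjusted p = 0.0133, adjusted p = 0.334, edgeR). With the leukocyte level of each library, which was tied to group, added to the fit the value was -0.09 (edgeR adjusted p = 0.929).

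Mdm2 (chromosome 10, 117688875 to 117710758), the ubiquitin ligase gene that closes the negative feedback on p53, had the smallest spread of the targets. The Zelnorm libraries MBZ_9, MBZ_11, MBZ_13 and MBZ_15 had 61.5, 58.7, 57.9 and 56.7 CPM, against 64.3, 64.2 and 61.5 CPM in NC_5, NC_6 and NC_10. MBZ_9 (61.50 CPM) and NC_10 (61.54 CPM) were almost equal, so the groups were set apart by a fraction of 1 CPM. The log2 fold change was -0.11 ± 0.06 (SE; unadjusted p = 0.0817, adjusted p = 0.55, edgeR).

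Zmat3 (chromosome 3, 32334792 to 32365665), which encodes a zinc finger protein that binds RNA, had the smallest p of the members. It had 73.5, 71.6, 65.1 and 78.5 CPM in MBZ_9, MBZ_11, MBZ_13 and MBZ_15, against 84.6, 79.1 and 95.3 CPM in NC_5, NC_6 and NC_10. MBZ_15 and NC_6 were neighbours at the gap between the groups. The mean was 72.2 ± 5.53 CPM in Zelnorm tumours (SD, n = 4) and 86.3 ± 8.21 CPM in NC tumours (SD, n = 3). The log2 fold change was -0.26 ± 0.08 (SE), with an unadjusted p = 0.00956 and an adjusted p = 0.300 in edgeR. It was -0.18 without NC_10, the library with the highest level. With the leukocyte level, which was tied to group, in the fit it was -0.41 (edgeR adjusted p = 0.786).

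Bax and Bbc3, the apoptosis genes among the members, did not separate the groups. Bax (chromosome 7, 45461695 to 45466903) encodes a pore-forming protein of the outer mitochondrial membrane. It had 130.03, 163, 144 and 147 CPM in MBZ_9, MBZ_11, MBZ_13 and MBZ_15, against 159.9, 136 and 154 CPM in NC_5, NC_6 and NC_10. Both ends of the range were Zelnorm libraries, and the log2 fold change was -0.04 ± 0.08 (SE; edgeR adjusted p = 0.922). GENCODE places a second gene model, Gm45808, on the same strand across part of Bax. It has no entry in the count table, and the annotation used in counting is not given, so whether reads of Bax were ambiguous is not known.

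Bbc3 (chromosome 7, 16308398 to 16318334), which encodes the BH3-only protein PUMA, was scarce, with between 97 and 156 counts per library. Its level was 5.58, 7.34, 6.36 and 7.92 CPM in MBZ_9, MBZ_11, MBZ_13 and MBZ_15, against 6.34, 5.63 and 6.42 CPM in NC_5, NC_6 and NC_10. The Zelnorm libraries spanned the NC libraries on both sides. At 0.15 ± 0.16 (SE; adjusted p = 0.81, edgeR), its log2 fold change was the least precise of the 10, with a 95% interval of the fold change from 0.868 to 1.42. MBZ_15 and MBZ_11, the libraries with the most muscle transcripts, had its highest levels. NC_5, next in muscle transcripts, had 6.34 CPM, less than MBZ_13 and NC_10. With the muscle level in the fit the log2 fold change was -0.0066, and without MBZ_11, MBZ_15 and NC_5 together it was -0.0195. A part of muscle in the difference was not tested otherwise. The log2 fold change was 0.06 without MBZ_15, 0.08 without NC_6 and 0.23 without MBZ_9.

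Phlda3 and Trp53inp1 both encode proteins that restrain growth or survival signals. Phlda3 (chromosome 1, 135766085 to 135769134), whose pleckstrin homology domain protein inhibits Akt, had 132, 123, 109 and 104 CPM in MBZ_9, MBZ_11, MBZ_13 and MBZ_15, against 130.4, 112 and 103 CPM in NC_5, NC_6 and NC_10. The ranges of the groups were almost the same, and the log2 fold change was 0.02 ± 0.10 (SE; edgeR adjusted p = 0.956). Trp53inp1 (chromosome 4, 11156441 to 11174379), linked to autophagy and to p53 phosphorylation, had 34.8, 28.0, 32.7 and 25.6 CPM in the Zelnorm libraries in the same order, against 34.5, 33.2 and 32.3 CPM in the NC libraries. The coefficient of variation was 13.9% among the Zelnorm libraries, with MBZ_15 and MBZ_11 low, and 3.38% among the NC libraries. NC_5, next to these libraries in muscle transcripts, had 34.5 CPM. A part of muscle was examined only by the fit with its level and by a fit without MBZ_11, MBZ_15 and NC_5. The latter gave a log2 fold change of 0.0389. The log2 fold change of Trp53inp1 was -0.14 ± 0.10 (SE; edgeR adjusted p = 0.704), and -0.03 with the muscle level in the fit. It was -0.07 without MBZ_15 and -0.22 without MBZ_9 (unadjusted p = 0.0512 and adjusted p = 0.507, edgeR).

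Sesn1 (chromosome 10, 41810574 to 41908436) encodes a sestrin, a stress protein that restrains the growth kinase complex mTORC1. It had 17.8, 19.2, 19.0 and 17.4 CPM in MBZ_9, MBZ_11, MBZ_13 and MBZ_15, against 16.0, 19.1 and 21.5 CPM in NC_5, NC_6 and NC_10. Here the spread was on the NC side, with NC_5 the lowest and NC_10 the highest of all 7 libraries, and the Zelnorm libraries lay between them. The log2 fold change was -0.04 ± 0.11 (SE; edgeR adjusted p = 0.932). A gene model on the same strand, 9930024M15Rik, overlaps Sesn1 in GENCODE and has no entry in the count table either.

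**Figure D2:**
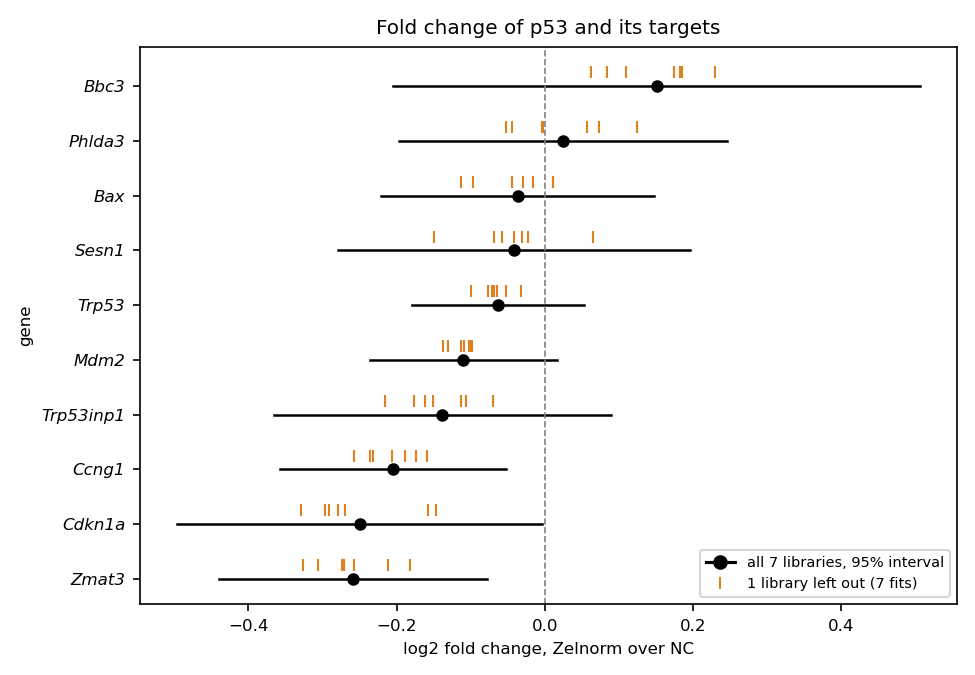
Log2 fold change of Zelnorm over NC for each member (horizontal axis), with the 95% confidence interval as a line through the point and orange ticks for the 7 fits that leave out 1 library. The intervals of Zmat3, Cdkn1a and Ccng1 do not reach 0, although none of the 10 adjusted p-values is under 0.05.

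The members did not move as a block from library to library. NC_5 had the highest level of Trp53, Cdkn1a and Mdm2 and the lowest level of Sesn1. In NC_10 the levels of Zmat3 and Sesn1 were the highest and that of Phlda3 was the lowest. MBZ_13 had the lowest Cdkn1a and Zmat3, MBZ_15 the lowest Trp53, Mdm2 and Trp53inp1, and MBZ_9 the lowest Bax and Bbc3 together with the highest Phlda3 and Trp53inp1. Counted over the 9 targets, the number above their own mean log2 CPM over the 7 libraries was 4 in MBZ_9, 4 in MBZ_11, 2 in MBZ_13 and 3 in MBZ_15, against 7 in NC_5, 6 in NC_6 and 6 in NC_10. These counts draw on the same values as the fold changes above and are no separate result. They were not compared with such counts over all genes. The highest and the lowest library of a member differed from 1.13-fold (Trp53) to 1.68-fold (Cdkn1a).

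**Figure D3:**
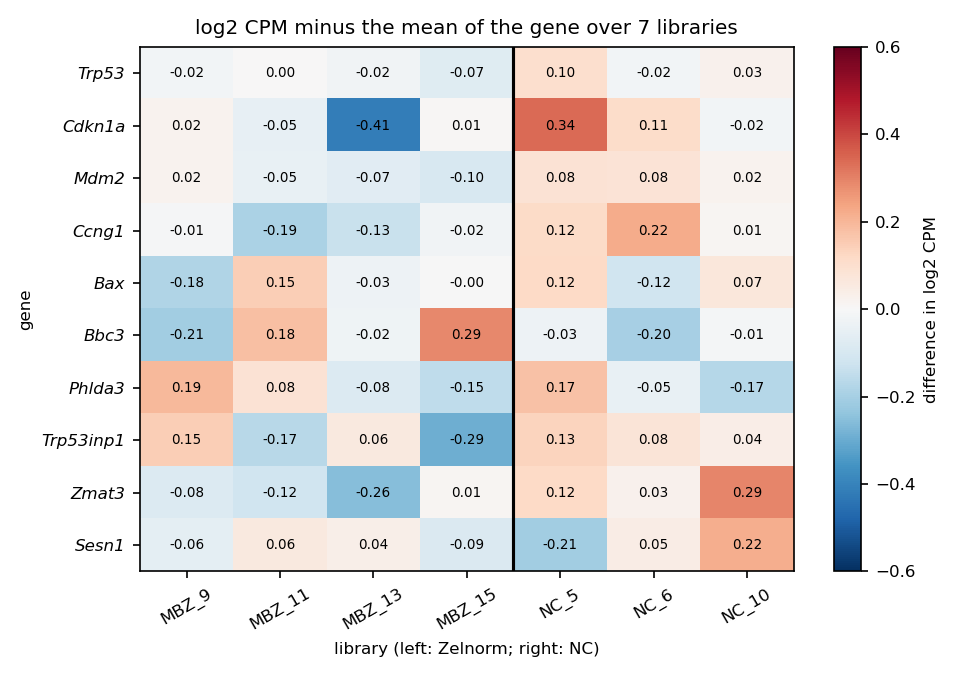
Log2 CPM of each member minus its mean over the 7 libraries, Zelnorm libraries left of the line and NC libraries right of it; red is above and blue below the mean. The range is from -0.41 for Cdkn1a in MBZ_13 to 0.34 for Cdkn1a in NC_5, and no library is high or low for all 10 genes.

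Per kilobase of annotated exon, which allows levels to be compared between genes, Bax was the most abundant member with a median of 93.4 CPM per kilobase over the 7 libraries. Phlda3 followed with 71.8, Cdkn1a with 58.4, Ccng1 with 40.1 and Trp53 with 31.1 CPM per kilobase. Mdm2 had 12.1, Zmat3 6.86, Trp53inp1 5.05, Sesn1 4.76 and Bbc3 2.99 CPM per kilobase. The ranges over the 7 libraries overlapped between Bax and Phlda3, Phlda3 and Cdkn1a, Cdkn1a and Ccng1, and Trp53inp1 and Sesn1, while the other neighbours in the order were apart in every library. Within a library, Phlda3 exceeded Cdkn1a and Cdkn1a exceeded Ccng1 in 7 of 7, Bax exceeded Phlda3 in 6 of 7, and Trp53inp1 exceeded Sesn1 in 4 of 7, so that the last pair had no steady order. The length is that of all exons of a gene in GENCODE M21, and a gene that uses only its shorter transcripts would be set too low.

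Genes whose pattern over the 7 libraries was most like that of Trp53, by the smallest root mean square difference of centred log2 CPM among 11446 genes, were Dcaf8 (0.0173), Tmem14c (0.0184) and Lmo1 (0.0196), where the median of all genes searched was 0.119. For Cdkn1a they were Trpm4 (0.0545), Lss (0.0615) and Lpcat2 (0.065), against a median of 0.234. These 3 had their lowest value in MBZ_13 and their highest in NC_5, as Cdkn1a did. This follows from how they were chosen and is no separate result.

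Regulators of p53 were compared next, from a list of 21 genes of which 18 could be tested. In edgeR, DESeq2 and limma voom 0 passed the adjusted threshold, 3 had an unadjusted edgeR p under 0.05 (16.7%, against 10.3% of all genes tested), the groups did not overlap for 0 of them (against 9.6% of all genes tested), 10 were above 0 and 8 below 0, and the median log2 fold change was 0.03. The 3 with the smallest p were Chek2, the checkpoint kinase that phosphorylates p53, with 22.2 ± 1.62 CPM in Zelnorm and 25.7 ± 1.28 CPM in NC tumours (log2 fold change -0.21 ± 0.08, SE), Crebbp, an acetyltransferase and coactivator, with 28.7 ± 2.93 and 24.0 ± 2.95 CPM in the same order (0.26 ± 0.11), and Hipk2, another p53 kinase, with 122 ± 7.05 and 109 ± 9.16 CPM (0.16 ± 0.07; SD, n = 4 and n = 3). Their edgeR adjusted p-values were 0.414, 0.437 and 0.457. Mdm4, the Mdm2 relative that also holds p53 down, had a log2 fold change of 0.08 ± 0.07, and Ppm1d, a phosphatase that reverses p53 activation, one of 0.06 ± 0.10. Cdkn2a, which encodes both the kinase inhibitor p16 and the Mdm2 antagonist Arf, had 4, 6, 5 and 5 counts in MBZ_9, MBZ_11, MBZ_13 and MBZ_15, against 1, 1 and 4 counts in NC_5, NC_6 and NC_10, which is near the floor of 3 counts in both groups. Trp73, a p53 relative, had 0 to 2 counts in every library, and Trp63, another relative, had 0 to 10.

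Further p53 targets, 53 genes in 5 groups by role, gave 0 calls over all genes tested in edgeR and limma voom and 1 in DESeq2 (Pltp, adjusted p = 0.0223), where DESeq2 called 206 genes, or 1.72% of those given an adjusted p. Of the 49 tested, 21 were above 0 and 28 below, the median was -0.02, and an unadjusted p under 0.05 was found for 4 with a higher and 2 with a lower level in Zelnorm tumours, together 12.2% against 10.3% of all genes tested. The groups did not overlap for 6 of them (12.2%, against 9.6% of all genes tested), 3 in each direction. On the higher side stood Ier5, an immediate early gene, with 16.1 ± 1.39 CPM in Zelnorm and 12.0 ± 0.306 CPM in NC tumours (log2 fold change 0.43 ± 0.10, edgeR adjusted p = 0.163), and Pltp, a phospholipid transfer protein gene, with 34.0 ± 6.02 and 22.7 ± 4.66 CPM in the same order (0.58 ± 0.15, edgeR adjusted p = 0.221). Macrophages also express Pltp, and the 12 macrophage markers had a median log2 fold change of 0.64, whose part in the difference was not tested. Dram1, a lysosomal gene of autophagy (0.64 ± 0.26), and Bid, a BH3-only gene (0.30 ± 0.13), were also among the 4. On the lower side stood Tnfrsf10b, the receptor for the death ligand TRAIL, with 15.8 ± 1.12 CPM in Zelnorm and 19.7 ± 0.633 CPM in NC tumours (-0.32 ± 0.09, edgeR adjusted p = 0.227), and Plk2, a polo-like kinase gene (-0.22 ± 0.10).

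By role, the medians of these groups were 0.19 for 9 genes of cell cycle arrest and senescence, 0.00 for 12 of apoptosis, -0.02 for 7 of DNA repair, -0.04 for 12 of metabolism and redox control, and -0.04 for 9 of other roles. In the first group Gdf15, a secreted stress cytokine, was at 2.54 ± 0.367 CPM in Zelnorm and 1.78 ± 0.0931 CPM in NC tumours (log2 fold change 0.51 ± 0.24), with all Zelnorm libraries above all NC libraries, and Pml, the scaffold of nuclear bodies and an interferon-induced gene, had 0.24 ± 0.12. The DNA repair genes with the smallest p were the polymerase genes Polk (-0.11 ± 0.12) and Polh (-0.06 ± 0.06) and the nuclease gene Ercc5 (-0.07 ± 0.08). Among metabolic genes Gpx1, a glutathione peroxidase, had 0.12 ± 0.07 and Ddit4, an inhibitor of mTORC1, had -0.19 ± 0.12. In the last group the gene listed as 9030617O03Rik had -0.25 ± 0.12 and Trp53i11 had -0.34 ± 0.21. The interferon response list, taken for comparison, had 14 of 14 tested genes above 0 (50.2% of all genes tested) with a median of 0.83, and for 11 of them every Zelnorm library was above every NC library (5.33% of all genes tested). Of these 14, 0 passed in edgeR (smallest adjusted p = 0.0559), 0 in limma voom and 8 in DESeq2, which called 1.72% of the genes it gave an adjusted p. In edgeR 13 had an unadjusted p under 0.05 (92.9%, against 10.3% of all genes tested).

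**Figure D4:**
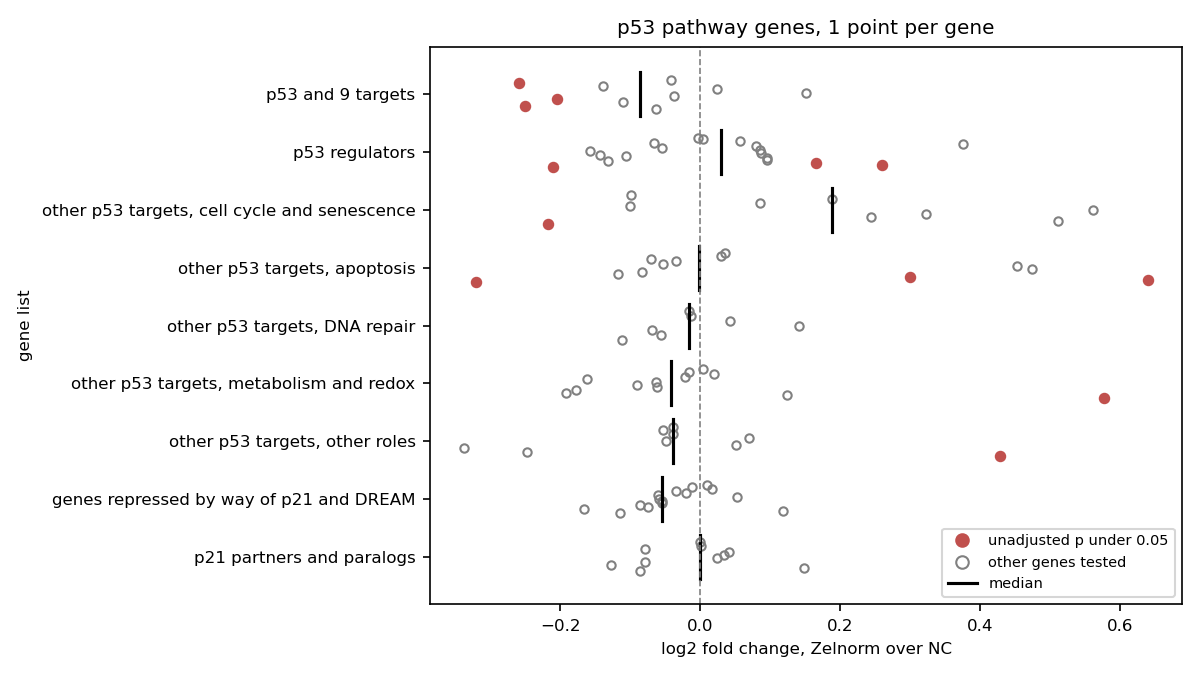
Log2 fold change of Zelnorm over NC (horizontal axis) for each tested gene of the p53 pathway lists, 1 point per gene, filled in red at an unadjusted edgeR p under 0.05, with the median of each list as a vertical bar. The medians lie between -0.09 (p53 and its 9 targets) and 0.19 (cell cycle and senescence targets).

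Downstream of p21, genes that are repressed through p21 and the DREAM complex, all of them cell division genes, had similar summed levels in the groups. Their sum was between 2383 and 2594 CPM in the Zelnorm libraries, against between 2515 and 2541 CPM in the NC libraries. Of 15 tested, 0 passed the test in either direction in edgeR, DESeq2 or limma voom. At an unadjusted p under 0.05 there were 0 in any of them, against 10.3% of all genes tested in edgeR. Of the 15, 4 were above 0 and 11 below (73.3%, against 49.8% of all genes tested), and the median was -0.05. For Ccnb2 and Ccna2, both cyclin genes, every Zelnorm library lay below every NC library, 2 of 15 (13.3%) against 4.27% of all genes tested. Ccnb2 averaged 102 ± 5.85 CPM in Zelnorm and 110.4 ± 4.07 CPM in NC tumours, and Ccna2 165 ± 3.24 CPM in Zelnorm and 172 ± 2.05 CPM in NC tumours (SD, n = 4 and n = 3). Those with the smallest p were Ccnb2, a mitotic cyclin gene (-0.11 ± 0.06), Mybl2, a DREAM-related activator (0.12 ± 0.07), and Cdc25c, the phosphatase that starts mitosis (-0.17 ± 0.10). The 10 partners and relatives of p21 had a median of 0.00, with Cdk4 at -0.09 ± 0.05, Cdk6 at 0.15 ± 0.09 and the retinoblastoma gene Rb1 at -0.13 ± 0.09, none of which passed the adjusted threshold in edgeR.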

How the data were processed

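Total RNA of B16F10 tumours was extracted with TRIzol and made into stranded mRNA libraries, per the labels' protocols. The authors deposited raw read counts per gene in 1 table. Trimmomatic, HISAT2, Cufflinks, HTSeq and DESeq are named, without versions or roles, per the submitters' processing notes, as are the builds GRCh38 (human) and GRCm38 (mouse). The strand setting of the counting, its annotation and any filter were not given in these sources. Columns name the group of a library but not its replicate number. For 27 genes the symbol was restored from the identifier, and coordinates are from RefSeq GRCm38.p6.

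Genes were kept by filterByExpr (12997), scaled by TMM (factors 0.986 to 1.01) and compared with edgeR 4.0.16 in R 4.3.3 (quasi-likelihood test, Benjamini-Hochberg at 0.05). The SE was derived from the F statistic and the 95% intervals from its degrees of freedom. Log2 CPM used a prior count of 2. The floor is 3 counts and covers counting error only. No pair of libraries agreed within sampling noise (chi-square per degree of freedom at least 6.53). The fit was tested on simulated data. Alternatives were other scalings, filters and tests (DESeq2 1.42.0, limma voom 3.58.1), leukocyte or muscle level as a covariate, and leaving out libraries.

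Members, lists and tests were chosen with earlier results of these data known. The 3 genes with the smallest p of each p53 pathway list were named, whatever their direction; Mdm4, Ppm1d, Ccna2, Cdkn2a, Trp63 and Trp73 were chosen after their values were seen. Exon lengths come from GENCODE M21.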

Additional observations from a re-analysis of the deposited data

How the results depend on the processing

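No member passed the adjusted threshold under any of the 16 alternatives (adjusted p from 0.113 to 0.999), among them DESeq2, where the smallest was 0.113 for Zmat3. Trp53, Cdkn1a, Mdm2, Ccng1 and Zmat3 kept a log2 fold change below 0 under all of them. The other 5 reversed at least once, and the causes were not tested. Bbc3 was -0.00662 with the muscle covariate and -0.0195 without MBZ_11, MBZ_15 and NC_5, the 3 libraries with most muscle transcripts, a choice made after seeing the data. Trp53inp1 was 0.0389 without those 3. Phlda3 was -0.037 with the leukocyte covariate, and Sesn1 was 0.0426 with the muscle covariate. Leaving out 1 library moved Bax between -0.113 (without NC_6) and 0.011 (without MBZ_9), Phlda3 between -0.0524 (without NC_10) and 0.124 (without NC_5), and Sesn1 between -0.149 and 0.0644 (without NC_10). In the same fits Cdkn1a lay between -0.33 and -0.15, Zmat3 between -0.33 and -0.18, Ccng1 between -0.26 and -0.16 and Trp53 between -0.10 and -0.03. The count of members at an unadjusted p under 0.05, 3 with all libraries, was 1 with the leukocyte covariate and 1 without NC_6. It was also 1 without the 3 muscle-rich libraries, and it was 4 without MBZ_9. Of all genes tested, 10.3% had such a p with all libraries. In these settings, in the same order, the shares were 5.46%, 10.4%, 4.23% and 9.93%. The value of Cdkn1a was then no smaller with the leukocyte covariate (-0.35) or without NC_6 (-0.28), while that of Ccng1 was -0.09 and -0.16.

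Over all genes, the 4 calls were 34 with no filter on low counts, 206 with DESeq2, 0 with the leukocyte covariate (710 genes at an unadjusted p under 0.05) and 0 without the 3 muscle-rich libraries (547 at an unadjusted p under 0.05). They ran from 0 (without NC_5) to 161 (without NC_10) when 1 library was left out, with 21 without MBZ_15. No paired analysis was possible because no column shows a replicate number from the titles. At between 97 and 156 counts, Bbc3 is the member most limited by depth.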
